A study of Mus musculus with 6 samples.

Results

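A set of 10 transcription factor genes that direct mesenchymal cells towards bone, fat or cartilage were followed through the differentiation of mouse myoblasts. They were taken by symbol from a table of 27179 genes. They are the Runt-domain factors Runx1, Runx2 and Runx3, the bone factor Sp7, the CCAAT/enhancer-binding proteins Cebpa, Cebpb and Cebpd, the fat cell receptor Pparg, the brown fat regulator Prdm16 and the cartilage factor Sox9. RNA was sequenced from C2C12, an established mouse myoblast line, in 3 libraries of myoblasts and 3 libraries of myotubes. Myoblasts were kept below confluence in 10% fetal bovine serum. Myotubes came from cultures held at 100% confluence for 3 days and then fed for 5 days with 2% horse serum plus insulin, transferrin, selenium and ethanolamine. All 6 libraries carry the same C2C12 background, and both media had high glucose and 4 mM glutamine. Serum, supplement, density and differentiation differ together, so their parts in a change cannot be told apart. The labels number 3 replicates of each state without saying that they are separate cultures. The p-values therefore reflect how far these libraries differ from each other, and that spread may be technical.

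Mesenchymal precursors can become muscle, bone, fat or cartilage cells, and each fate is driven by a small set of factors. RUNX2 and its downstream partner SP7 drive osteoblast formation. C/EBP beta and delta act early in fat cell formation and are followed by PPAR gamma and C/EBP alpha, while PRDM16 steers cells to brown fat and away from muscle. SOX9, with SOX5 and SOX6, builds the cartilage program. C2C12 cells are known to leave the muscle fate when given bone morphogenetic proteins, which raise Runx2 and Sp7 and block myotube formation.

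Total counts ran from 7370169 to 8339589 in myotubes and from 10076945 to 11723881 in myoblasts. The labels were checked against 10 muscle genes, all of which were detected: 8 rose and 2 fell, with a median log2 change of 6.72. The muscle creatine kinase gene Ckm (log2 change 9.27) and the fast troponin T gene Tnnt3 (8.94) led them, whereas Myod1 fell by 0.16 and Myf5 by 0.13. Ckm reached 10 counts in every library of the myotube group only. The Myf5 call was lost with DESeq2 size factors, in DESeq2's Wald test and without myoblast library 1 or 3 or myotube library 1 or 3 (adjusted p up to 0.23). Levels are given as CPM, the usual count of a gene's reads scaled to a common library size, after TMM scaling. With scaling by total counts alone, the median log2 change of all genes moved from 0.02 to −0.13, a shift of −0.15, so changes and list medians near that size depend on the scaling.

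Of the 10 factors, 8 passed the filter on low counts, and all 8 differed between myotubes and myoblasts at an adjusted p of 0.05 in edgeR's quasi-likelihood test. Runx1, Cebpb and Cebpd rose, and Runx2, Runx3, Cebpa, Pparg and Sox9 fell. Over all 12800 genes tested, 79.5% were called, 40.2% as higher and 39.2% as lower, so a call by itself does not set these factors apart. The same shares are the background for the counts of higher and lower genes given for each list below. The CPM of the 2 groups did not overlap for any of the 8, which was also true of 80.5% of all genes tested. Sp7 was too low to test, and Prdm16 had 0 counts in every library. The median log2 change of the 8 was −0.53.

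**Figure D1:**
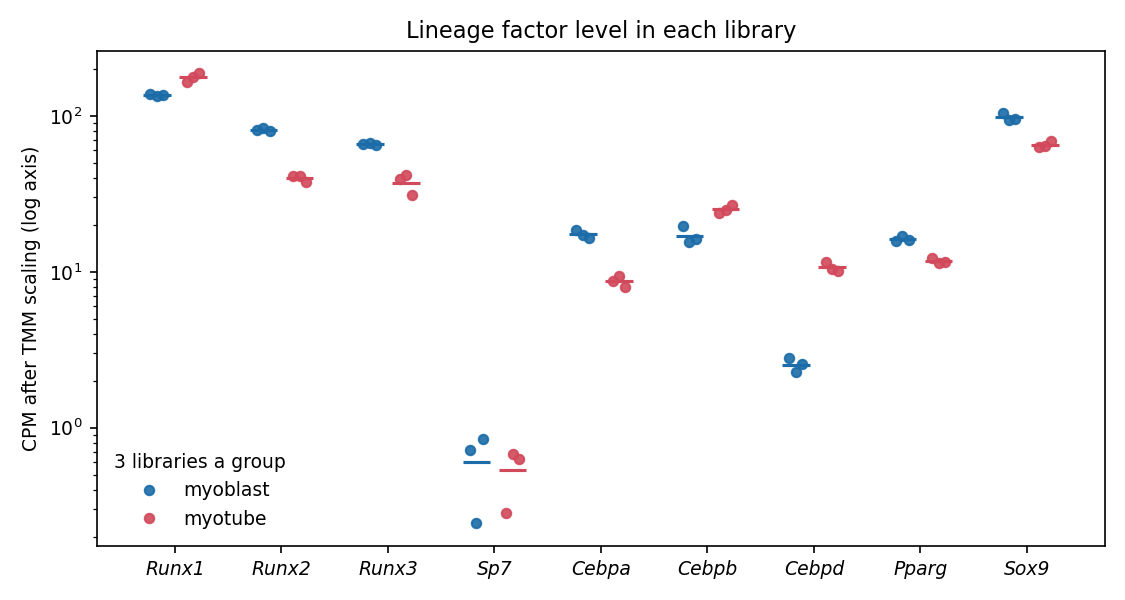
CPM after TMM scaling (log axis) of 9 of the 10 factors in each of the 3 myoblast (blue) and 3 myotube (red) libraries, with a line at each group mean. The groups are apart for every gene but Sp7, which stayed under 1 CPM; Prdm16 had no counts and is not drawn.

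The 3 RUNX genes, whose proteins bind the same DNA core with the partner CBFB, did not move together. In the RefSeq promoter table (GRCm38.p6), which gives sequence around annotated start sites, each has a window that carries the same run of 18 bases with 2 RUNX cores. The 30 bases around this run are shown because windows of all 3 genes hold the run, although the genes took different directions. Capitals mark the shared run, and each sequence reads 5′ to 3′ on the gene's own strand.

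Runx1: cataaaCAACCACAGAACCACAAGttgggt
Runx2: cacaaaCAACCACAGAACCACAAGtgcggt
Runx3: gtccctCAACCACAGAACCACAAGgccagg

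The 3 stretches lie at chr16:92826025-92826054 (minus strand), chr17:44814583-44814612 (minus strand) and chr4:135120503-135120532 (plus strand). The run begins 27 bases past the annotated start of Runx1, 22 bases past that of Runx2 and 136 bases before that of Runx3, counting the first base of the transcript as base 1. The run was picked as the longest that a window of each of the 3 genes shares, so its presence in them was fixed by the search. It was found in 4 of 32851 windows of the same length (0.0122%), on either strand. They belong to the 3 Runx genes and to Gm16225, whose window overlaps that of Runx3 on the other strand. The RUNX core TGTGGT, searched on both strands, read as its reverse complement in the 2 copies of the run. At least 1 core was present in 16.8% of all windows and at least 2 in 1.81%. These are the windows of the distal starts of Runx1 and Runx3, and each of these genes has a second window that holds no such core. The counts are per gene and do not separate transcripts by start site.

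Runx1, a factor of blood formation that myoblasts also express, was the only RUNX gene that rose. It had 138, 135 and 137 CPM in myoblast libraries 1, 2 and 3 and 164, 177 and 188 CPM in myotube libraries 1, 2 and 3. All myotube libraries lay above all myoblast libraries, and the spread was wider in myotubes (SD 11.7 against 1.45 CPM, n = 3 each). The log2 change was 0.37 (SE 0.05, adjusted p = 9.85e-08 by edgeR), or 1.29-fold. The size depends on the scaling: with total counts alone it was 0.22 and still called.

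Runx2, the master factor of bone formation, fell to 48.8% of its myoblast level. It had 81.2, 84.1 and 79.5 CPM in the myoblast libraries and 41.1, 41.1 and 37.5 CPM in the myotube libraries. The groups were far apart compared with their spread (SD 2.34 and 2.08 CPM, n = 3 each). The log2 change was −1.03 (SE 0.06, adjusted p = 4.12e-14 by edgeR). Of the exon bases of Runx2, 7.3% are shared with the annotated antisense transcript Runx2os1. The library kit marks strand, but no source used here says whether the counting used it, so reads of the 2 there may not be separated.

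Runx3, which acts in T cells, sensory neurons and cartilage, fell to 56.3%. Its libraries had 66.2, 66.8 and 64.8 CPM as myoblasts and 39.2, 41.6 and 31.1 CPM as myotubes. Myotube library 3 was the lowest, and every myotube library lay below every myoblast library. The log2 change was −0.83 (SE 0.08, adjusted p = 2.31e-10 by edgeR).

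Differences between paralogs were tested as log2 ratios within each library. A total of 6 pairs, 3 in each family, were compared by an exact two-sided permutation test, in which 3 against 3 libraries cannot go below p = 0.1. Each of the 6 exact tests gave p = 0.1 (adjusted p = 0.1), so none could pass 0.05. The log2 ratio of Runx1 over Runx2 went from 0.74 ± 0.05 to 2.13 ± 0.16 (SD, n = 3), which is a shift of 1.39. Runx1 over Runx3 moved by 1.20 (SD 0.03 in myoblasts and 0.30 in myotubes), and Runx2 over Runx3 by −0.20 (SD 0.02 in myoblasts and 0.15 in myotubes). Both ratios with Runx1 therefore moved further than the ratio of Runx2 to Runx3. The shift of that ratio was well above its SD in myoblasts but little more than its SD in myotubes.

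Per kilobase of annotated exon, which allows levels of different genes to be compared, Runx1 made up 40.2 ± 0.669% of the RUNX total in myoblasts and 61.9 ± 3.94% in myotubes (SD, n = 3). The Runx2 share went from 25.2 ± 0.501% to 14.7 ± 0.808% and the Runx3 share from 34.6 ± 0.178% to 23.4 ± 3.23%. The summed level of the 3 genes was 45.6 ± 0.494 CPM per kb in myoblasts and 38.2 ± 1.16 in myotubes. Runx1 was thus already the leading RUNX transcript in myoblasts, and its share was larger in all 3 myotube libraries.

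**Figure D2:**
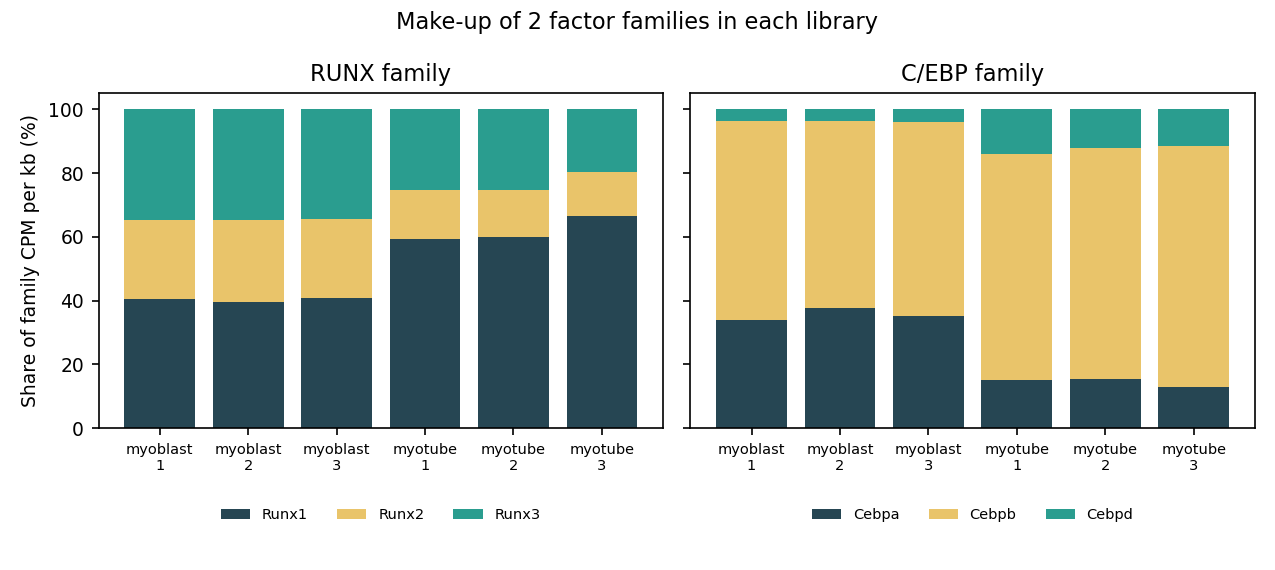
Share (%) of each gene in the summed CPM per kb of exon of the RUNX family (left) and the 3 C/EBP genes (right), 1 bar for each library. Runx1 takes 59.2 to 66.4% of the RUNX total in myotubes against 39.4 to 40.7% in myoblasts, and Cebpa takes 12.8 to 15.4% against 33.8 to 37.7%.

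Of 9 genes for RUNX partners, 8 were tested: 4 rose and 4 fell, with a median log2 change of 0.07. Cbfa2t3, a co-repressor of the ETO family, went from 0.327 ± 0.238 to 26.9 ± 3.85 CPM (log2 change 6.32). It had 11 counts in the myoblast group, which limits the precision of this size. Cbfa2t3 reached 10 counts in every library of the myotube group only, and the filter favours a call towards that group. Among the Groucho-type co-repressors, Tle4 rose by 2.10, whereas Tle1 fell by 1.15 and Tle2 by 0.90 on the log2 scale. The DNA-binding partner gene Cbfb, named after its values were seen, went from 133 ± 3.96 to 175 ± 4.18 CPM (log2 change 0.40).

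Sp7, the osteoblast factor that acts after RUNX2, was barely detected. It had 8, 3 and 9 counts in myoblast libraries and 2, 5 and 5 counts in myotube libraries. That is 0.604 ± 0.318 CPM against 0.531 ± 0.214 CPM (SD, n = 3), and the groups overlapped. With no filter on low counts its log2 change was −0.17 (adjusted p = 0.815 by edgeR), so no difference was detectable at this depth.

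Of 12 regulators of bone formation other than the members, 9 were tested, 2 rose and 6 fell, with a median log2 change of −0.52. Of the 9, 1 reached 10 counts in every library of 1 group only: Msx2 in myoblasts, named after its values were seen. Dlx5 and Dlx6 had 0 counts throughout and Twist1 had 1 and 2 in the groups; these were picked out with their values known. Dlx3, a homeobox factor of bone and skin, fell from 71.0 ± 5.11 to 6.08 ± 0.424 CPM (log2 change −3.54). Twist2, which restrains RUNX2, fell by 2.50. Zfp521, a zinc finger repressor of fat cell fate, rose by 1.14, and Atf4, a factor of the amino acid response and of late osteoblasts, rose by 0.73.

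Osteoblast marker genes were called in both directions, as were the genes tested as a whole (40.2% higher and 39.2% lower). Of 18 listed osteoblast markers, 8 were tested, 3 of which rose and 3 fell, with a median log2 change of 0.06. Of the 8, 2 reached 10 counts in every library of 1 group only: Bglap2 in myotubes and Omd in myoblasts. The bone alkaline phosphatase gene Alpl had 2 counts in the myoblast group and 0 in the myotube group, and osteocalcin (Bglap) had 0 and 2. Ibsp and Sost, named after their values were seen, had 0 counts in all libraries. Spp1, which encodes osteopontin and is also expressed by myoblasts and macrophages, fell from 3815 ± 105 to 898 ± 15.5 CPM (log2 change −2.09), and the small proteoglycan gene Omd fell by 2.29.

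Col1a1, a collagen of bone and of most fibrous tissue, rose from 313 ± 6.77 to 1542 ± 134 CPM. Bglap2 had 1 count in the myoblast group and 77 in the myotube group, a ratio of 117 with an exact 95% counting interval of 20.5 to 4700. Bglap2 is an osteocalcin gene and had the largest log2 change of the list, at 3.44 ± 0.328 CPM in myotubes. Intervals of this kind cover counting error only. Bglap and Bglap2 lie close together on chromosome 3. The search for copied sequence covered the members only, so how well reads of these osteocalcin genes are told apart was not tested. Other bone genes, picked out with their values known, had counts in both states. Dmp1, a matrix protein gene of osteocytes, had 326 and 244 counts in the groups and was not called (log2 change 0.19, adjusted p = 0.167 by edgeR). Phex, a peptidase gene of bone cells, fell from 6.66 ± 0.524 to 1.76 ± 0.241 CPM.

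Cebpa fell while Cebpb and Cebpd rose. C/EBP proteins dimerise through a leucine zipper and bind the same DNA motif; C/EBP alpha holds fat cells and liver cells in their mature state. Cebpa had 18.6, 17.3 and 16.4 CPM in the myoblast libraries and 8.71, 9.34 and 7.96 CPM in the myotube libraries. The groups did not overlap, and the myotube level was 49.6% of the myoblast level (log2 change −1.01, SE 0.12, adjusted p = 2.85e-08 by edgeR).

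Cebpb, an early factor of fat cell formation and of inflammation that also restrains muscle differentiation, rose 1.48-fold. Its values were 19.7, 15.4 and 16.1 CPM in myoblasts and 23.7, 25.0 and 26.8 CPM in myotubes. The highest myoblast library lay below the lowest myotube library. The log2 change was 0.56 (SE 0.10, adjusted p = 1.95e-05 by edgeR). In GENCODE, 20.7% of its exon bases are shared with a transcript of Tmem189 on the opposite strand, and in RefSeq the 2 genes are apart. Tmem189 rose as well, by 1.69 on the log2 scale, and its part in the Cebpb count was not tested.

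Cebpd, an acute-response factor that works beside Cebpb, had the steepest change of the 8. It had 31, 28 and 27 counts in myoblast libraries and 81, 77 and 80 counts in myotube libraries. As CPM these were 2.79, 2.28 and 2.54 against 11.6, 10.4 and 10.1, so the lowest myotube library was more than 3 times the highest myoblast library. The log2 change was 2.07 (SE 0.17, adjusted p = 3.42e-11 by edgeR), or 4.21-fold. The end of Cebpd overlaps the end of Spidr, which lies on the other strand, over 562 of its 3746 exon bases in GENCODE. In RefSeq the overlap is 322 bases. Spidr fell by 0.69 on the log2 scale, and its part in the Cebpd count was not tested.

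Within the libraries, the log2 ratio of Cebpa over Cebpb went from 0.04 ± 0.12 to −1.51 ± 0.18 (SD, n = 3), and that of Cebpa over Cebpd from 2.67 ± 0.12 to −0.30 ± 0.13. Cebpb over Cebpd moved by −1.42. Each difference exceeded the SD many times, with the exact permutation p of 0.1 given above. Per kb of exon, Cebpb was the main transcript of the 3 in both states, at 60.8 ± 1.89% in myoblasts and 73.1 ± 2.34% in myotubes. The Cebpa share went from 35.6 ± 1.95% to 14.4 ± 1.37% and the Cebpd share from 3.63 ± 0.197% to 12.5 ± 1.28%. With the shorter RefSeq model of Cebpd, an alternative chosen after the data were seen, the Cebpd share went from 5.88 ± 0.311% to 19.1 ± 1.81% and that of Cebpb from 59.4 ± 1.84% to 67.6 ± 2.64%.

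Of 8 other C/EBP family members and partners, 7 were tested, 4 rose and 2 fell, with a median log2 change of 0.73. Ddit3, which encodes the stress-induced inhibitory partner CHOP, rose from 23.1 ± 1.02 to 127 ± 4.32 CPM (log2 change 2.46). Trib3, a pseudokinase gene of the same stress response, rose by 3.28. Trib1 and Trib2, pseudokinases that direct C/EBP alpha to degradation, fell by 0.54 and 0.40. The Trib2 call was lost in 8 of 13 alternatives, which included DESeq2's Wald test (adjusted p = 0.152). It was also lost without any 1 of the 3 myoblast libraries, without myotube library 2 and without myotube library 3 (adjusted p in edgeR 0.0553 to 0.145).

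**Figure D3:**
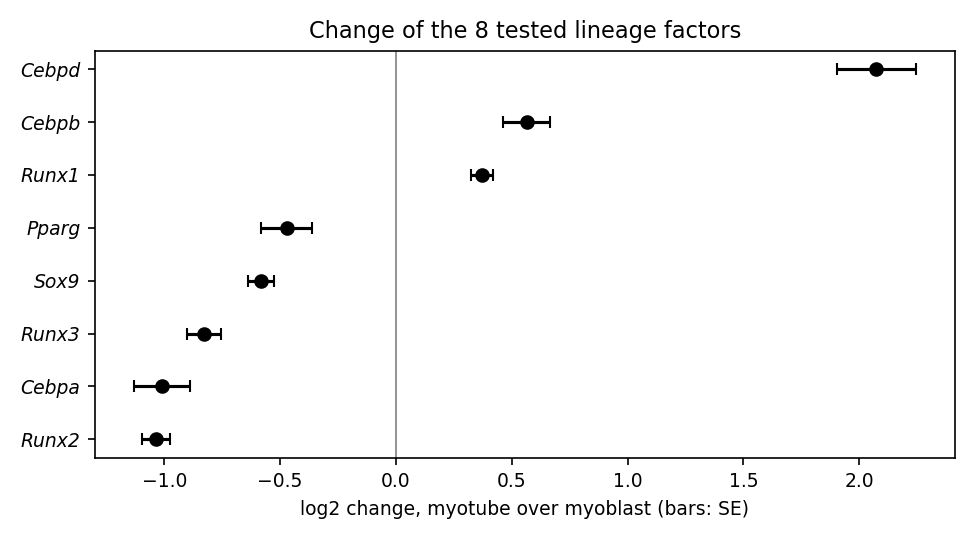
Log2 change of myotubes over myoblasts for the 8 tested factors, with bars for the SE. Runx1, Cebpb and Cebpd lie above 0 and the other 5 below, from 2.07 for Cebpd to −1.03 for Runx2.

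Pparg, the nuclear receptor that commits cells to the fat fate, was low in both states and fell to 72.1%. It had 15.8, 16.99 and 16.0 CPM in the myoblast libraries and 12.3, 11.4 and 11.6 CPM in the myotube libraries. All myotube values lay below all myoblast values (log2 change −0.47, SE 0.11, adjusted p = 0.000387 by edgeR).

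Pparg has 3 windows in the promoter table. The most downstream one is shown because it is the only Pparg window with a C/EBP motif, and the C/EBP genes moved apart. Its 250 bases before the start, at chr6:115421816-115422065 on the plus strand of GRCm38.p6, hold TTGCNNAA 2 times, once on each strand. Capitals mark both matches in the sequence, which reads 5′ to 3′.

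Pparg: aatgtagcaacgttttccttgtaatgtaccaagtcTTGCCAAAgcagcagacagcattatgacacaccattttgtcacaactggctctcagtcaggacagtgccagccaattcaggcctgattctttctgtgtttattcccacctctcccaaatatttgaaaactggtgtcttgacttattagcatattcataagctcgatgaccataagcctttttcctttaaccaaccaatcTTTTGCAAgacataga

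The matches begin 215 and 16 bases before the start. TTGCNNAA was found in 10.8% of all windows and at least 2 times in 0.773%. It was also present once in the Runx2 window, 48 bases before the start, and in no window of Cebpa, Cebpb or Prdm16. Sp7, Cebpd and Sox9 have no window in the promoter table and could not be searched. The matches describe letters only, and the gene counts do not tell which Pparg start was used.

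PPAR gamma works as a dimer with a retinoid X receptor and recruits coregulators. Of 12 PPAR, RXR and coregulator genes, 10 were tested, 3 rose and 5 fell, with a median log2 change of −0.10. The coactivator gene Ncoa1 rose by 1.14, while Ncoa3 fell by 0.79 and the acetyltransferase gene Ep300 by 0.63. Rxrb rose by 0.23, a call lost with scaling by total counts (log2 change 0.08, adjusted p = 0.238). Rxra, the main RXR partner, was not called (log2 change 0.01, adjusted p = 0.91 by edgeR), and Ppard, the gene of a relative of PPAR gamma, fell by 0.42; both were picked out once their values were known.

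Other regulators of fat cell formation were called in both directions, as were the genes tested as a whole (40.2% higher and 39.2% lower). Of 17 regulators, 14 were tested, 8 rose and 5 fell, with a median log2 change of 0.31. Klf5, which acts with C/EBP factors on Pparg, rose by 1.32, and the zinc finger gene Zfp467 by 1.43. Zfp467 reached 10 counts in every library of the myotube group only, and the filter favours a call towards that group. Gata2, a repressor of Pparg, fell by 2.00 and Ebf1, an early B cell and fat cell factor, by 1.47. Klf15, named after its values were seen, had 0 counts in myoblasts and 34 in myotubes, at least 17.3-fold higher than 3 counts over the myoblast group would give.

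Some defining fat cell genes were at or near 0. Fabp4, Adipoq and Plin1 had 1, 0 and 1 counts in the myoblast group and 0 each in the myotube group. Of 19 fat cell genes 10 were tested, 7 rose and 1 fell, with a median log2 change of 0.59. Of the 10, 4 reached 10 counts in every library of 1 group only. These were Gpd1, Cd36 and, named after its values were seen, Slc2a4 in myotubes, and Plin4 in myoblasts. For such genes the filter favours a call towards that group. The genes that rose most are also expressed in muscle: the glycerol phosphate enzyme gene Gpd1 went from 0.895 ± 0.297 to 103 ± 6.49 CPM (log2 change 6.85) and the fatty acid transporter gene Cd36 from 0.605 ± 0.455 to 65.7 ± 3.56 CPM. Plin4, a lipid droplet coat, fell by 3.72.

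Prdm16 had 0 counts in all 6 libraries. With 3 counts taken as the limit that a count of 0 allows, its level was at most 0.244 to 0.283 CPM in a myoblast library and 0.379 to 0.428 CPM in a myotube library, counting error only. Of 14 brown fat genes and PRDM16 co-regulators 11 were tested, 4 rose and 6 fell, with a median log2 change of −0.20. Of the 11, 4 reached 10 counts in every library of 1 group only: Ppargc1a, Cox7a1 and Cox8b in myotubes and Elovl3 in myoblasts. For such genes the filter favours a call towards that group. The heat-producing carrier gene Ucp1 and the lipid droplet gene Cidea had 0 counts throughout. The 4 that rose are also genes of skeletal muscle: Ppargc1a rose by 3.70, the deiodinase gene Dio2 by 4.80 and, named after its values were seen, Cox7a1 by 4.69. For Cox8b, with 3 counts over the myoblast libraries, the ratio was 540 (exact 95% counting interval 184 to 2621). The PRDM16-binding co-repressor gene Ctbp2 fell by 0.67, and Elovl3 by 1.02. The Elovl3 call rested on 50 and 16 counts and was lost in 4 alternatives (adjusted p of 0.0588 to 0.151), 3 of which leave out myoblast library 2, myoblast library 3 or myotube library 1. Without that myotube library its log2 change was −0.68.

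Sox9, the factor that specifies cartilage, was the second most abundant member by CPM in myoblasts and fell to 66.8%. It had 104, 94.3 and 95.7 CPM in the myoblast libraries and 63.1, 64.2 and 68.7 CPM in the myotube libraries. No myotube library reached the lowest myoblast library (log2 change −0.58, SE 0.06, adjusted p = 8.41e-10 by edgeR). No exon of another gene in GENCODE overlaps Sox9, and none of its 50-base windows has an exact copy in another gene's transcripts.

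The relatives and partners of SOX9 were called in both directions, as were the genes tested as a whole (40.2% higher and 39.2% lower). Of 10 relatives and partners, 7 were tested, 4 rose and 3 fell, with a median log2 change of 0.65. Of the 7, 1 reached 10 counts in every library of 1 group only: Barx2 in myotubes, named after its values were seen. Sox8, of the same SOX subgroup as Sox9, rose by 1.24, from 10.2 ± 1.38 to 23.9 ± 5.94 CPM, and the partner gene Sox5 rose by 0.95. Sox4 fell by 0.65 and Gli3, the hedgehog pathway factor, by 1.96. Sox6, named after its values were seen, had 19 and 15 counts in the groups and was not tested.

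Cartilage marker genes were close to absent in both states. Of 19, only 2 were tested, both of which rose: Col11a2 by 0.99 and Pth1r, the parathyroid hormone receptor gene, by 1.70. Over the myoblast libraries these had 62 and 18 counts, and Pth1r reached 10 counts in every library of the myotube group only. The defining cartilage collagen gene Col2a1 had 5 and 2 counts in the groups, Col9a1 had 0 and 0, and Col9a2 had 1 and 0. The summed level of the 19 genes was 4.31 to 5.66 CPM in myoblast libraries and 8.71 to 8.97 CPM in myotube libraries, less than the level of Sox9 alone.

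**Figure D4:**
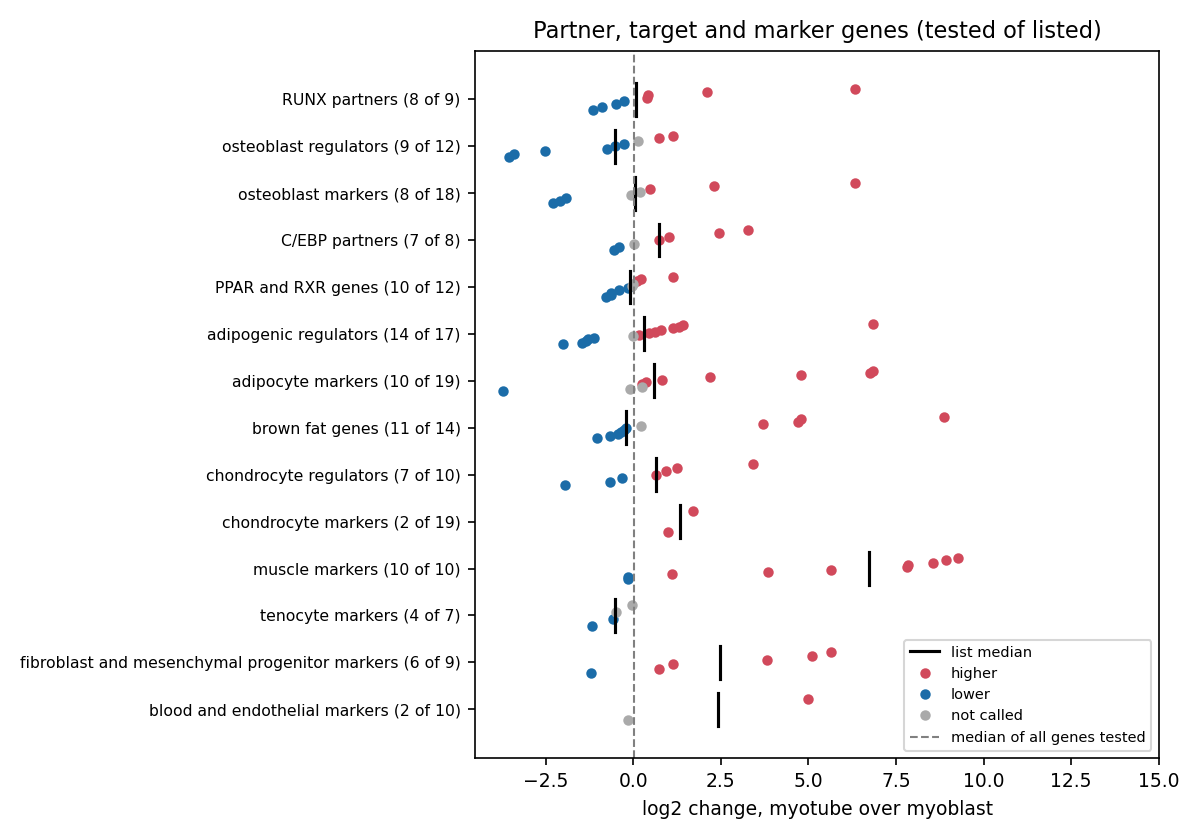
Log2 change of each tested gene in 14 lists of partners, regulators and markers, coloured by call, with the median of each list (black bar) and of all 12800 genes tested (dashed line, 0.02). The muscle list has the highest median, 6.72; the positions of Klf15, Bglap2, Cox8b, Col15a1 and Itgam depend on the fit because they had 0 to 3 myoblast counts.

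The order of the members by CPM per kb of exon changed between the states. In myoblasts Sox9 was highest (23.7 ± 1.23, SD, n = 3), followed by Runx1 (18.3 ± 0.195) and Runx3 (15.8 ± 0.248). Runx2 (11.5 ± 0.330) and Cebpb (11.4 ± 1.51) overlapped, as did Pparg (6.84 ± 0.265) and Cebpa (6.61 ± 0.421). Cebpd (0.677 ± 0.0680) and Sp7 (0.180 ± 0.0950) were last before Prdm16 at 0. In myotubes Runx1 led with 23.7 ± 1.58, and Cebpb (16.7 ± 1.03) and Sox9 (15.8 ± 0.724) overlapped behind it. Runx3 (8.93 ± 1.32), Runx2 (5.63 ± 0.294) and Pparg (4.94 ± 0.196) came next without overlap, and Cebpa (3.29 ± 0.262) overlapped Cebpd (2.86 ± 0.204). With the shorter RefSeq model of Cebpd, 2260 bases in place of 3746, Cebpd had 4.73 ± 0.338 CPM per kb in myotubes and overlapped Pparg. The longest coding transcript of Runx1 has 5861 bases against 7452 exon bases, and that of Pparg 2125 against 2378. The order with transcript lengths was not tested, so the lead of Sox9 over Runx1 in myoblasts holds for the exon lengths used.

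Against all genes tested, Runx1 was expressed above 87.6% of them in myoblasts and above 91.0% in myotubes, by CPM. Runx2 went from above 75.9% to above 55.8%, and Runx3 from above 70.5% to above 54.0%. Sox9 lay above 80.6% and then 69.8%, whereas Pparg lay above 33.7% and 27.5%. Cebpa went from above 34.96% to above 22.4%, Cebpb from above 34.5% to above 43.3% and Cebpd from above 12.1% to above 25.7%. By CPM, which is not corrected for length, the C/EBP genes and Pparg ranked below the RUNX genes and Sox9 in both states.

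Markers of other cell types were set beside these results. In bulk RNA, fewer cells of a type and less RNA per cell cannot be told apart. Of 9 fibroblast and mesenchymal progenitor genes, 6 were tested, 5 rose and 1 fell. The summed level of the 9 was 244 to 268 CPM in myoblast libraries and 615 to 701 CPM in myotube libraries. Of the 6, 2 reached 10 counts in every library of 1 group only: Col15a1 and Pi16, both in myotubes. The matrix proteoglycan gene Dcn rose by 5.10 and Pdgfra, a receptor of fibro-adipogenic progenitors, fell by 1.21. Col15a1, with 2 counts over the myoblast libraries, had a ratio of 61.0 (exact 95% counting interval 16.4 to 513). Thy1 and Dpp4, named after their values were seen, had 0 counts in myoblasts and 2 each in myotubes. Other genes of the list, also named after their values were seen, were higher in myotubes. Ly6a went from 186 ± 10.3 to 310 ± 20.7 CPM, Cd34 from 41.0 ± 3.16 to 91.3 ± 8.80 CPM and Pi16 from 0.472 ± 0.0663 to 6.79 ± 1.73 CPM. The part of such cells in the changes of the 8 factors was not tested.

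Of 7 tendon genes, 4 were tested and 2 fell: the immediate early gene Egr1 by 1.17 and the matrix gene Tnc by 0.58. Their summed level was 1428 to 1506 CPM in myoblasts and 926 to 989 CPM in myotubes. Blood cells are a main site of Runx1 and Runx3 expression in the body. Ptprc, the marker of all white blood cells, had 1 count in each group, and Adgre1 and Cd3e had 0 in all libraries. Cd68, of the same list, had 64 and 38 counts in the groups and was not called (log2 change −0.14, adjusted p = 0.673 by edgeR). Tek had 14 and 22 counts and was not tested. All of these were picked out with their values known. The 10 blood and vessel genes summed to 2.26 to 2.97 CPM in myoblast libraries and 5.28 to 5.68 CPM in myotube libraries. Of these, 2 were tested and 1 was higher, Itgam, from 2 to 51 counts (ratio 38.9, exact 95% counting interval 10.2 to 330). Itgam reached 10 counts in every library of the myotube group only. The part of blood cells in the Runx1 and Runx3 counts was not tested.

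In GRCm38 (GENCODE M21), Runx1 (Entrez gene 12394) lies on chromosome 16 at 92601466 to 92826149, Runx2 (12393) on chromosome 17 at 44495987 to 44814797 and Runx3 (12399) on chromosome 4 at 135120652 to 135177990. Sp7 (170574) lies on chromosome 15 at 102356606 to 102367182. Cebpa (12606) lies on chromosome 7 at 35119293 to 35121928, Cebpb (12608) on chromosome 2 at 167688915 to 167690418 and Cebpd (12609) on chromosome 16 at 15887286 to 15891031, each as a single exon. Pparg (19016) lies on chromosome 6 at 115360951 to 115490399, Prdm16 (70673) on chromosome 4 at 154316125 to 154636873 and Sox9 (20682) on chromosome 11 at 112782224 to 112787760.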

How the data were processed

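Libraries of 6 samples, made with a stranded mRNA kit per the labels, were analysed from raw read counts per gene, which the authors deposited with Entrez IDs and symbols. The submitters' processing notes name fastp, STAR, featureCounts and mm10; no source used here gives versions, strand setting or annotation. Members and lists were chosen with earlier results of these data known.

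Of 27179 genes, 12800 passed filterByExpr (minimum count 10, minimum total 15). A gene can pass through 1 group only, where it is high, and the filter then favours a call in that direction. Counts were scaled by TMM and tested on the whole table in edgeR 4.0.16 (R 4.3.3) with Benjamini-Hochberg adjustment at 0.05; SE is the absolute log2 change over the square root of F. The test was tried on simulated data. Replicates were never identical (chi-square per degree of freedom 1.37 to 3.37). Ratios of members used CPM + 0.25. Exon lengths, overlaps and copies came from GENCODE M21, promoters from RefSeq GRCm38.p6. Named were all members, per list the 2 largest called changes each way with a mean of at least 1 CPM, and the first 3 genes of 4 marker lists; others are marked. Alternatives used DESeq2 1.42.0 and limma 3.58.1.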

Additional observations from a re-analysis of the deposited data

How the results depend on the processing

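All 8 tested factors kept their direction and call in the 13 alternatives: limma-voom, DESeq2's Wald test, DESeq2 size factors, total counts, 1 CPM as the filter, none at all, the replicate block and leaving out each of the 6 libraries. The counts of 3 higher and 5 lower held in each, and the largest adjusted p was 0.00412, for Pparg in DESeq2's Wald test. The log2 change ranged from 0.22 to 0.42 for Runx1, from 0.42 to 0.67 for Cebpb and from 1.93 to 2.14 for Cebpd. The 6 paralog ratios kept their sign with an offset of 1 CPM and without each library. Some small list counts moved, and the cause was not tested. With total counts 1 PPAR and RXR gene was higher, 2 adipocyte markers were lower and 4 tenocyte markers were lower. With no filter 2 blood and endothelial markers were higher. C/EBP partners lower numbered 1 in DESeq2's Wald test, limma-voom and the replicate block, and 1 to 2 without single libraries. Muscle markers lower numbered 1 with DESeq2 size factors and in the Wald test, and 1 to 2 without single libraries. The labels do not say that replicate numbers mark shared cultures, and deviations of same-numbered libraries correlated at −0.00844, 0.00179 and −0.00386. Depth limits Sp7, Prdm16 and 17 of 19 cartilage markers, which had too few counts to test.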
